A study of Mus musculus with 4 samples.

Results

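The genes described here are 90 genes of glycosyltransferase families, most of whose enzymes act in the Golgi apparatus, out of 22180 genes measured in cultured mouse keratinocytes. A gene belongs to the set if its array row carries exactly 1 gene symbol and that symbol starts with B4gal, B3gal, B3gn, St3gal, St6gal, St8sia, Galnt, Fut, Mgat or Gcnt. A gene with several rows was represented by its brightest row, averaged over all 4 arrays. The symbols fall into 13 enzyme families. The set includes 1 transcribed pseudogene, Fut4-ps1, which is counted as a gene throughout.

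The study asked how keratinocytes differ when the glucose transporter Glut1, the product of Slc2a1, is deleted. Keratinocytes were taken from C57BL/6J mice aged 1 week, 4 mice per genotype. The cells labelled Glut1-deficient came from Glut1 fl/fl mice carrying K14-Cre, in which the keratin 14 promoter drives Cre in basal keratinocytes. The cells labelled wild type (WT) came from Glut1 fl/fl mice, so both groups carry the floxed alleles. Cells were reseeded after 3 days at the same number in both groups and collected 1 day later. Plates of a genotype were pooled at random, 2 plates per array, which gave 2 MoGene 2.0 arrays for Glut1-deficient cells and 2 for WT cells. Fewer cells were lysed for Glut1-deficient samples than for WT samples.

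Glycosyltransferases transfer a sugar from an activated donor, such as UDP-galactose or CMP-sialic acid, onto a growing glycan of a protein or lipid. Most act in the Golgi in a set order. Galnt enzymes begin mucin-type O-glycans, Gcnt and Mgat enzymes add branches, B4gal, B3gal and B3gn enzymes extend chains, and sialyltransferases and fucosyltransferases cap or decorate the ends. In epidermis these glycans are carried by adhesion receptors, growth factor receptors and sphingolipids of the keratinocyte surface.

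Values are log2 intensities, and differences are Glut1-deficient minus WT on that scale. A gene rose or fell only where limma's test, adjusted by Benjamini-Hochberg over all 22180 genes, gave p under 0.05. P-values measure the spread between the 2 pools of each genotype. A row's intensity depends on its probes, so differences are taken within a gene. Sums over markers, which follow mainly their brightest rows, and rows set beside a median are only rough guides to level. In RNA from whole cultures, fewer cells of a type and less RNA per cell cannot be told apart.

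The arrays had medians from 4.07 to 4.11. The row of the targeted gene, Slc2a1, read 11.01 and 11.01 on the arrays labelled Glut1-deficient and 11.13 and 11.05 on the WT arrays, a difference of -0.07 (95% interval -0.30 to 0.15, limma adjusted p = 0.675). Both Glut1-deficient values lay below both WT values, as for 27.7% of all genes, but the difference was small and did not pass. The sources used here do not tie this row to the deleted exons, and the genotypes below rest on the labels. Krt14, the basal keratin, read 12.15 and 12.21 on the arrays labelled Glut1-deficient, against 12.56 and 12.54 on the WT arrays. Of 11 keratinocyte markers measured, 0 passed limma's test and 7 had an unadjusted p under 0.05 (22.2% of all genes did). Of these 7, 5 had a negative difference, among them Col17a1 at -0.73 and Itgb4 at -0.57, and 2 a positive one, Dsg3 at 0.47 and Dsc3 at 0.31. Krt1 and Krt15 lay below the array medians on every array. Summed linear intensities of the melanocyte markers were 1789 and 1679 on the arrays labelled Glut1-deficient, against 653 and 564 on the WT arrays, with 6 of 10 risen (1.79% of all genes rose). The 6 were Dct, Gpnmb, Slc45a2, Mlana, Pmel and Tyrp1, and 9 of the 10 differences were positive. Fibroblast markers summed to 1497 and 864 on the arrays labelled Glut1-deficient, against 487 and 435 on the WT arrays, with 1 of 14 risen, Twist2 at 2.40. However, 13 of the 14 differences were positive, and 10 had an unadjusted p under 0.05, all of them positive. Of the endothelial markers 1 of 10 rose, and their sums were 409 and 359 on the arrays labelled Glut1-deficient, against 188 and 191 on the WT arrays. Kdr, the one that rose, read 7.72 and 7.59 on the arrays labelled Glut1-deficient, against 5.08 and 5.48 on the WT arrays. Eng differed by 1.16 and Pecam1 by -0.35 without passing, and the endothelial list's median difference was 0.04, with 5 positive and 5 negative. Tyr and Sox10 of the melanocyte list, Fap of the fibroblast list and Cdh5 and Vwf of the endothelial list stayed at or near the array medians in both genotypes or below them. The part of these other cells in the results below was not tested.

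Among the 90 glycosyltransferase genes, 3 rose and 3 fell, and 84 did not pass. The 6 genes are 6.67% of the set, against 2.84% of all genes tested. B4galnt2 was chosen with its value known, and without it the share of the set is 5.62%. Those that rose were B4galnt2, Fut1 and St6gal1, 3.33% of the set (2.25% without B4galnt2) beside 1.79% of all genes. Those that fell were Gcnt1, St3gal3 and St3gal5, also 3.33%, beside 1.05% of all genes. A further 9 genes had a limma adjusted p from 0.05 to 0.1, 3 of them with a positive and 6 with a negative difference. At an unadjusted p under 0.05, 29 members (32.2%) and 22.2% of all genes passed, and 10 of the 29 differences were positive and 19 negative. With a variance that follows intensity, 19 members passed, 6 with a positive and 13 with a negative difference, while over all genes 1344 were positive and 1327 negative. With any 1 array left out, 0 members passed in limma (16 to 32 at an unadjusted p under 0.05).

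Calls were more frequent among rows of higher intensity, so the set was also split at 4.76, the median of the row means of all genes. Of its 51 rows above that value, 5 passed (9.8%), against 5.13% of all genes above it. B4galnt2 is among the 5, but its WT mean of 4.56 lies below 4.76. It counts as bright only through its Glut1-deficient arrays, so the split is not independent of the difference. Of the 39 others, 1 passed (2.56%), against 0.55% of all genes not above it. The median difference over the 90 genes was -0.04, beside -0.007 over all genes, and the median size of the difference was 0.18, beside 0.14. The quartiles of the members were -0.24 and 0.08, and 36 differences were positive and 54 negative. Both arrays of a genotype lay on the same side of both arrays of the other for 48 members (53.3%), against 53.2% of all genes. Of these, 15 were above WT and 33 below, while 25.5% of all genes were above and 27.7% below. At least 2-fold differences were found for 4 members (4.44%, or 3.37% without B4galnt2, against 1.62% of all genes), namely B4galnt2, St8sia2, B3gnt3 and Mgat3.

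**Figure D1:**
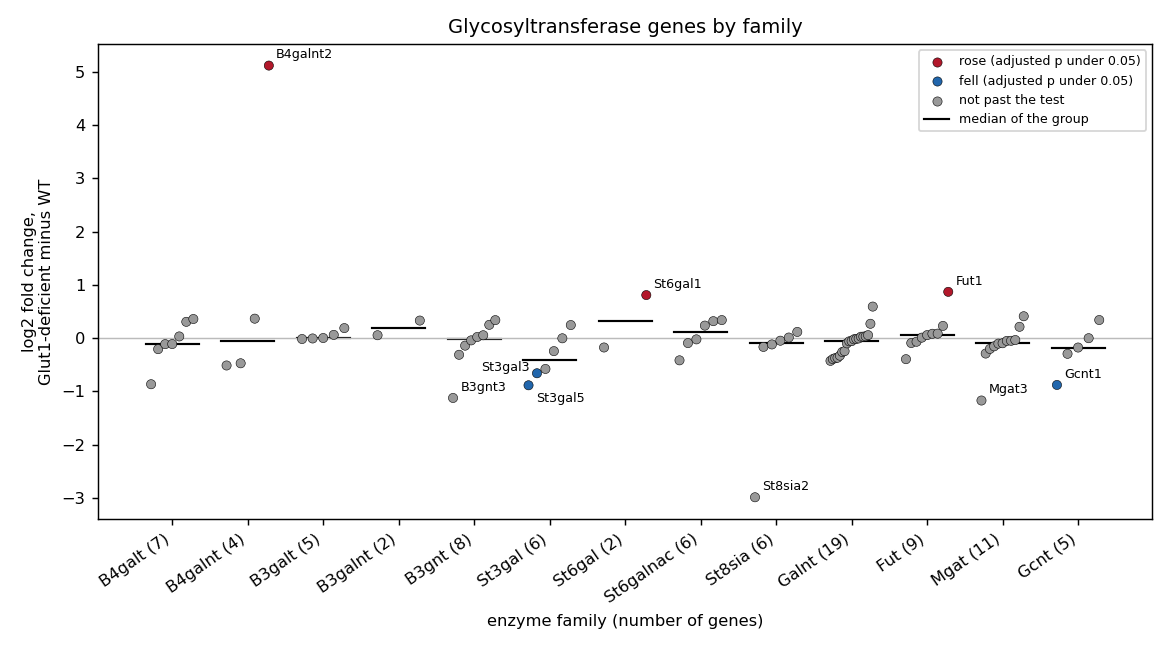
Log2 fold change, Glut1-deficient minus WT, of each of the 90 glycosyltransferase genes (points), by enzyme family with the number of genes in brackets; bars are family medians. B4galnt2 at 5.12 and St8sia2 at -2.99 lie far outside the others, which run from -1.17 for Mgat3 to 0.87 for Fut1.

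B4galnt2 had the highest log2 fold change of all 22180 genes and St8sia2 the lowest, so the promoter of each is shown. Each sequence covers 250 bases before the annotated start of transcription and 50 bases after it, taken from RefSeq on build GRCm38.p6, and reads 5′ to 3′ in the direction of the gene. Capitals mark the 50 bases from the annotated start on. The B4galnt2 window is chr11:95914822-95915121 and the St8sia2 window chr7:74013633-74013932, both on the minus strand.
B4galnt2: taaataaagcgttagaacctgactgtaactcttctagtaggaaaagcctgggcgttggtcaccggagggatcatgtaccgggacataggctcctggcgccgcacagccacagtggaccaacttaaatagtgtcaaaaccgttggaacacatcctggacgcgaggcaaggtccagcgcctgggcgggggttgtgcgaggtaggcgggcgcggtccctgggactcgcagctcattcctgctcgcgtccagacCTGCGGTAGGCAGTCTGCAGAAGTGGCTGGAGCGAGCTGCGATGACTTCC
St8sia2: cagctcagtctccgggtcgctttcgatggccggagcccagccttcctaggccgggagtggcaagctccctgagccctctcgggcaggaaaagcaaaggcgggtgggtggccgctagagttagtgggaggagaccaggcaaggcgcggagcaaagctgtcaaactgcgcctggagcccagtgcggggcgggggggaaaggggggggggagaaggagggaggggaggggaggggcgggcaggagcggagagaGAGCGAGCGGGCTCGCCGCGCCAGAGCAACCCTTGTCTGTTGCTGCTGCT
The B4galnt2 window had a GC content of 59.0% with 21 CG dinucleotides, and the St8sia2 window 68.7% with 20. The median GC content was 59.7% over the windows of the set and 52.7% over all 32851 RefSeq windows. RefSeq held 92 such windows for 66 of the 90 genes. They were searched on both strands for TGATGNAAT, the composite element bound by C/EBP and ATF factors, for the E-box CACGTG and for the cyclic AMP response element TGACGTCA. TGATGNAAT was found in 0.965% of all windows and in 0 windows of the set. CACGTG was found in 7.15% of all windows and in 6 of the 92 windows of the set. These belong to B3galt2, B3galt5, B3gnt7, B3gntl1, Galnt9 and St6galnac3. TGACGTCA was found in 1.79% of all windows and in 2 of the 92, those of B4galt3 and Galnt11. None of the 3 motifs was in the windows of the 6 genes that rose or fell, nor in that of St8sia2.

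B4galnt2 transfers N-acetylgalactosamine to a galactose that already carries sialic acid, which makes the Sda, or Cad, blood group epitope. In mice it is best known from the intestinal epithelium. It read 9.81 and 9.55 on the arrays labelled Glut1-deficient and 4.35 and 4.77 on the WT arrays. The WT values lay close to the array medians, and both Glut1-deficient values lay far above them. Means were 9.68 ± 0.180 in Glut1-deficient and 4.56 ± 0.297 in WT keratinocytes (SD, n = 2 each). The gene rose by 5.12 (SE 0.176, 95% interval 4.67 to 5.58), which is 34.8-fold with an interval of 25.4 to 47.7 (limma adjusted p = 0.00743). No detection calls were used here, so it is not known whether the WT values lie above background, and the fold and its interval describe the array values only. With 1 array left out at a time the difference stayed between 4.91 and 5.33, and in those fits no gene of the set passed.

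B4galnt2 had the highest difference of all genes, so lower values at its neighbours on chromosome 11 were given beforehand. Of the 10 nearest genes with a value, 5 on each side in the RefSeq gene table of GRCm38.p6, 0 passed in limma and 0 had an unadjusted p under 0.05. Over all genes, 2.84% passed and 22.2% had such an unadjusted p. On one side these were 4833417C18Rik, Gngt2, Abi3, Zfp652 and B130006D01Rik, and on the other Gip, Snf8, Ube2z, Atp5g1 and Calcoco2. Their differences ran from -0.23 for 4833417C18Rik, a long noncoding RNA gene, to 0.25 for Zfp652, a zinc finger gene, and the smallest limma adjusted p was 0.256. The arrays of the genotypes overlapped for 6 of the 10, and for 10386 of all 22180 genes. Intestinal epithelium markers, such as Vil1 and Cdx2, summed to 113 and 118 on the arrays labelled Glut1-deficient, against 118 and 113 on the WT arrays. None of those 8 markers passed in limma, and 0 had an unadjusted p under 0.05. All 8 had row means not above 4.76, the median over all genes. At that level similar sums cannot show whether such expression changed.

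**Figure D2:**
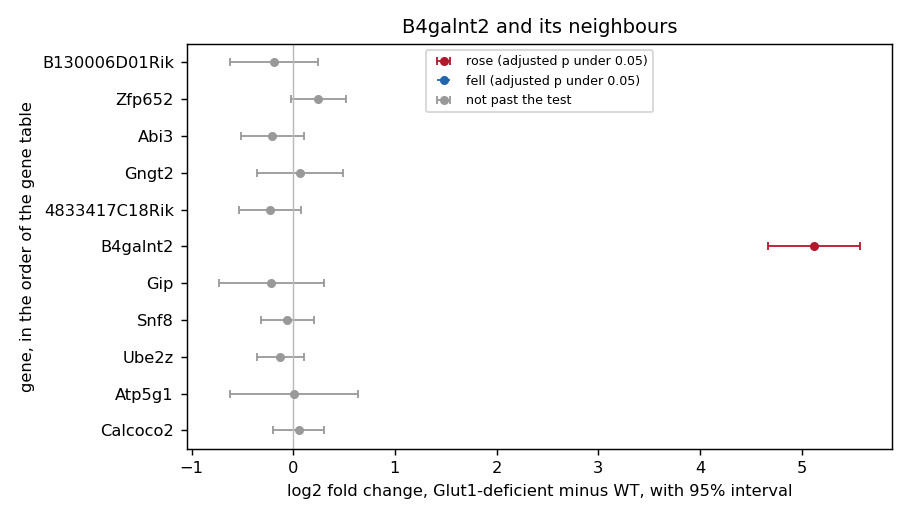
Log2 fold change, Glut1-deficient minus WT, with its 95% interval for B4galnt2 and the 5 genes with a value on each side of it, in gene table order. B4galnt2 lies at 5.12, and the 10 neighbours lie between -0.23 and 0.25.

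The 3 relatives of B4galnt2 did not pass, although the arrays of the genotypes did not overlap for any of the 4 family members (53.2% of all genes do not overlap). B4galnt1 makes the gangliosides GM2 and GD2. It read 8.82 and 8.99 on the arrays labelled Glut1-deficient, against 9.32 and 9.44 on the WT arrays (difference -0.47, limma adjusted p = 0.0919). B4galnt3 and B4galnt4 both make the LacdiNAc unit, in which N-acetylgalactosamine takes the place of galactose. B4galnt3 read 6.13 and 6.14 on the arrays labelled Glut1-deficient, against 5.73 and 5.80 on the WT arrays (difference 0.37, limma adjusted p = 0.0981). B4galnt4 read 5.65 and 5.86 on the arrays labelled Glut1-deficient, against 6.17 and 6.38 on the WT arrays (difference -0.51, limma adjusted p = 0.105). The difference was thus positive for B4galnt3 and negative for B4galnt1 and B4galnt4, and none of them passed.

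Sialyltransferases, which cap glycans with sialic acid, number 20 in the set, and 1 of them rose and 2 fell. These are 5.0% and 10.0% of the 20, beside 1.79% and 1.05% of all genes. St6gal1 attaches sialic acid to the sixth carbon of galactose on N-glycans. It read 5.89 and 5.87 on the arrays labelled Glut1-deficient and 5.12 and 5.03 on the WT arrays, with no overlap. It rose by 0.81 (SE 0.088, 95% interval 0.58 to 1.04), or 1.75-fold (limma adjusted p = 0.0277). St6gal2, which makes the same linkage, had overlapping arrays and a difference of -0.18 (limma adjusted p = 0.618).

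The St3gal enzymes attach sialic acid to the third carbon of galactose, and 2 of the 6 fell (1.05% of all genes fell). The family had the lowest median of the 13, -0.41, and 5 of its 6 differences were negative. St3gal3, which acts on N-acetyllactosamine chains, read 5.65 and 5.74 on the arrays labelled Glut1-deficient, against 6.30 and 6.41 on the WT arrays. It fell by 0.66 (SE 0.094, 95% interval -0.90 to -0.42), which is 1.58-fold lower (limma adjusted p = 0.0422). St3gal5, the GM3 synthase that opens ganglioside synthesis, read 6.05 and 6.31 on the arrays labelled Glut1-deficient, against 7.16 and 6.98 on the WT arrays. It fell by 0.89 (SE 0.128, 95% interval -1.22 to -0.56), which is 1.85-fold lower (limma adjusted p = 0.0438). Both genes had all Glut1-deficient values below all WT values. St3gal4, which also caps N-acetyllactosamine, read 6.15 and 6.68 on the arrays labelled Glut1-deficient, against 7.07 and 6.92 on the WT arrays (difference -0.58, limma adjusted p = 0.177). St3gal1, an enzyme of core 1 O-glycans, differed by -0.24 (adjusted p = 0.184) and St3gal6 by 0.25 (adjusted p = 0.290), while St3gal2 differed by -0.003 and had overlapping arrays.

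St8sia2 is a polysialyltransferase, which builds polysialic acid on the neural cell adhesion molecule. It read 4.58 and 6.03 on the arrays labelled Glut1-deficient and 8.28 and 8.31 on the WT arrays. The WT arrays were nearly equal, whereas the Glut1-deficient arrays differed from each other more than for any other gene in the plot of single arrays. The difference was -2.99 (SE 0.468, 95% interval -4.20 to -1.78), 7.95-fold lower with an interval of 3.45 to 18.3. Its limma adjusted p of 0.0502 did not pass, so this gene is counted among the 84. It passed under 6 of 14 other settings, and lay between -3.71 and -2.27 with 1 array left out. The other St8sia genes were within 0.17 of zero: St8sia6 differed by -0.17 (limma adjusted p = 0.431), St8sia5 by 0.12 (limma adjusted p = 0.524), and St8sia1, St8sia3 and St8sia4 by -0.12 to 0.01 with overlapping arrays.

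The St6galnac family adds sialic acid to N-acetylgalactosamine of O-glycans and gangliosides. In limma 0 of its 6 members passed, with 2 at an unadjusted p under 0.05 (22.2% of all genes). St6galnac3 differed by 0.32 (limma adjusted p = 0.118), St6galnac2 by -0.42 (limma adjusted p = 0.128) and St6galnac4 by 0.24 (limma adjusted p = 0.232). The remaining 3 had overlapping arrays and differences from -0.09 to 0.34.

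**Figure D3:**
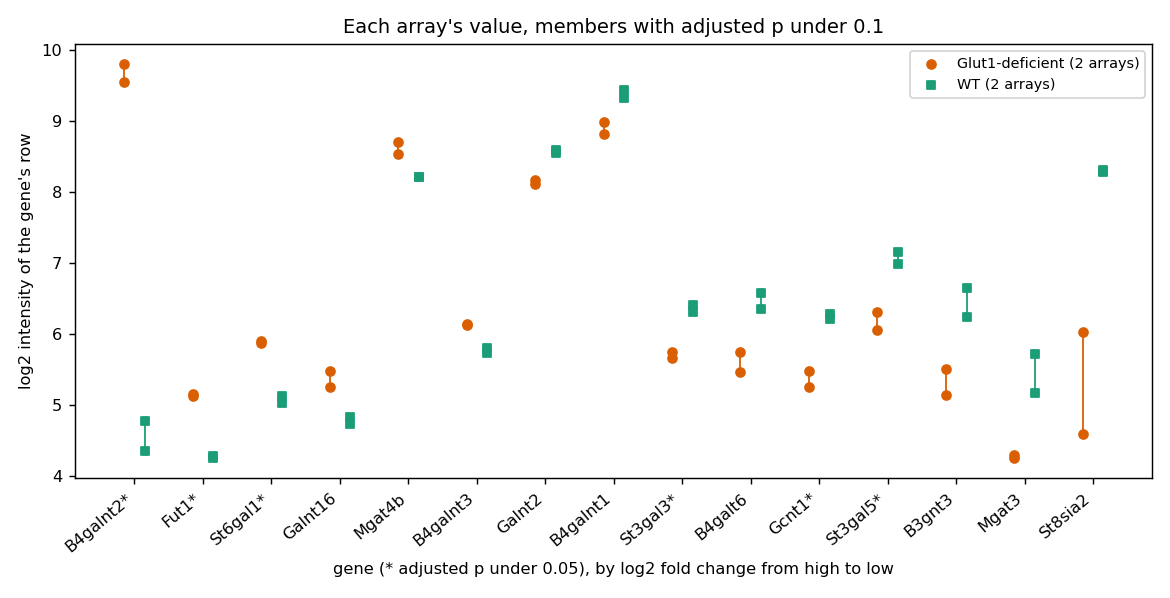
Log2 intensity on each array for the 15 members with a limma adjusted p under 0.1, ordered by log2 fold change from high to low; circles are the 2 Glut1-deficient and squares the 2 WT arrays, and stars mark genes with adjusted p under 0.05. B4galnt2 reads 9.55 to 9.81 on the Glut1-deficient and 4.35 to 4.77 on the WT arrays, and the Glut1-deficient values of St8sia2 lie far apart at 4.58 and 6.03.

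Of the 9 Fut genes, 1 rose (1.79% of all genes rose). Fut1 adds fucose to a terminal galactose and so makes the H antigen. It read 5.15 and 5.12 on the arrays labelled Glut1-deficient and 4.24 and 4.28 on the WT arrays, and the WT values were near the array medians. It rose by 0.87 (SE 0.084, 95% interval 0.65 to 1.09), or 1.83-fold (limma adjusted p = 0.0220). Fut4, which makes Lewis x structures, differed by -0.40 (limma adjusted p = 0.123), Fut10 by -0.09 (limma adjusted p = 0.582) and the pseudogene Fut4-ps1 by 0.23 (limma adjusted p = 0.651). The other 5, including Fut2, a close relative of Fut1, and Fut8, which adds the core fucose of N-glycans, had overlapping arrays and differences from -0.07 to 0.08.

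Gcnt1, the enzyme that branches core 1 into core 2 O-glycans, was the only 1 of 5 Gcnt genes to pass (2.84% of all genes passed). It read 5.25 and 5.48 on the arrays labelled Glut1-deficient and 6.28 and 6.21 on the WT arrays, with no overlap. It fell by 0.88 (SE 0.112, 95% interval -1.17 to -0.59), which is 1.84-fold lower (limma adjusted p = 0.0354). Gcnt3, which also makes core 2 branches on mucins, differed by 0.34 (limma adjusted p = 0.152). Gcnt7 differed by -0.29 (limma adjusted p = 0.275), Gcnt2, which branches polylactosamine chains, by -0.18 (limma adjusted p = 0.309), and Gcnt4 by -0.001.

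The Galnt genes start O-glycosylation by adding N-acetylgalactosamine to serine or threonine. None of the 19 passed in limma, and 6 had an unadjusted p under 0.05 (31.6%, against 22.2% of all genes). Galnt16 read 5.48 and 5.25 on the arrays labelled Glut1-deficient, against 4.82 and 4.72 on the WT arrays (difference 0.59, limma adjusted p = 0.0728). Galnt2 read 8.17 and 8.11 on the arrays labelled Glut1-deficient, against 8.54 and 8.60 on the WT arrays (difference -0.43, limma adjusted p = 0.0765). Galnt4 differed by -0.39 (limma adjusted p = 0.110). The other 16 differed by -0.38 to 0.27. Arrays did not overlap for 8 of the 19, 7 of them below WT and 1 above, while 53.2% of all genes did not overlap, 27.7% below and 25.5% above.

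The Mgat genes branch N-glycans, and 0 of 11 passed in limma, with 2 at an unadjusted p under 0.05 (22.2% of all genes). Mgat3 adds the bisecting N-acetylglucosamine that blocks further branching. It read 4.29 and 4.25 on the arrays labelled Glut1-deficient and 5.72 and 5.16 on the WT arrays, so the WT arrays spread more widely. The difference was -1.17 (95% interval -1.67 to -0.67), 2.25-fold lower, with a limma adjusted p of 0.0542. Mgat4b, which adds a branch to a mannose of the N-glycan core, read 8.70 and 8.54 on the arrays labelled Glut1-deficient, against 8.21 and 8.21 on the WT arrays (difference 0.41, limma adjusted p = 0.0998). Mgat4a, its close relative, differed by 0.21 (limma adjusted p = 0.270). The other 8, including Mgat1, Mgat2 and Mgat5 of the main branching route, differed by -0.29 to -0.04.

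None of the B3gnt, B4galt, B3galt and B3galnt genes, whose enzymes lengthen chains, passed. The B3gnt family adds N-acetylglucosamine to galactose. In it, 0 of 8 passed in limma and 3 had an unadjusted p under 0.05 (22.2% of all genes did). B3gnt3, which extends core 1 O-glycans, read 5.13 and 5.51 on the arrays labelled Glut1-deficient, against 6.23 and 6.65 on the WT arrays. Its difference of -1.12 (95% interval -1.63 to -0.62), 2.18-fold lower, had a limma adjusted p of 0.0596. B3gnt9 differed by 0.34 (limma adjusted p = 0.128), and B3gnt8, which extends branched N-glycans, by -0.31 (limma adjusted p = 0.193). The other 5 B3gnt genes differed by -0.14 to 0.25.

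The B4galt family adds galactose to N-acetylglucosamine, glucose or xylose. Of its 7 genes 0 passed in limma and 2 had an unadjusted p under 0.05 (22.2% of all genes did). B4galt6, a lactosylceramide synthase, read 5.74 and 5.45 on the arrays labelled Glut1-deficient, against 6.58 and 6.35 on the WT arrays (difference -0.87, limma adjusted p = 0.0540). B4galt7, which builds the linker of proteoglycans, differed by 0.36 (limma adjusted p = 0.113) on its brighter row and by -0.07 on the other. B4galt1, the main galactosyltransferase of N-glycans, differed by -0.21 (limma adjusted p = 0.240), and the other 4 by -0.11 to 0.31. None of the 5 B3galt or 2 B3galnt genes passed in limma, and 0 had an unadjusted p under 0.05. The arrays overlapped for all 7, and for 10386 of all 22180 genes. B3galt4, the GM1 synthase, differed by 0.19, B3galt5 by 0.06 and B3galt6, another enzyme of the proteoglycan linker, by -0.02. B3galnt1, the globoside synthase, differed by 0.33, and B3galnt2, which acts on dystroglycan, by 0.05.

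Several members act in turn on the same glycosphingolipids, and this route was put together after their values were seen. Ugcg adds glucose to ceramide, B4galt5 and B4galt6 add galactose, and St3gal5 adds the first sialic acid. B4galnt1, B3galt4 and St3gal2 then extend the ganglioside, St8sia1 makes GD3, and A4galt leads to globosides. Of these 9 genes only St3gal5 passed. Ugcg, which is no member of the set, read 7.70 and 7.69 on the arrays labelled Glut1-deficient, against 7.41 and 7.40 on the WT arrays (difference 0.29, limma adjusted p = 0.141). B4galt6, St3gal5 and B4galnt1 had negative differences with both Glut1-deficient arrays below both WT arrays, as did 27.7% of all genes. B4galt5, which makes the same product as B4galt6, had overlapping arrays and a difference of 0.31 (limma adjusted p = 0.456). A4galt differed by 0.16 (limma adjusted p = 0.523).

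**Figure D4:**
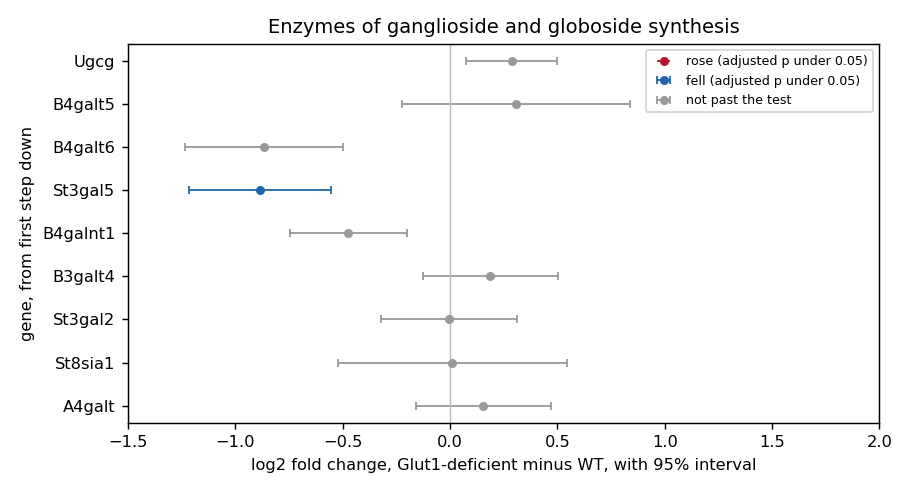
Log2 fold change, Glut1-deficient minus WT, with its 95% interval for 9 enzymes of ganglioside and globoside synthesis, from the first step down. St3gal5 at -0.89 passed the test, B4galt6 at -0.87 and B4galnt1 at -0.47 have intervals below 0 without passing, and the other intervals reach 0 except that of Ugcg at 0.29.

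Other genes of glycan synthesis, breakdown and binding were described through 9 lists. Of their 144 genes measured, 4 rose and 3 fell (4.86% in all, against 2.84% of all genes). In the synthesis of nucleotide sugars, the donors of these enzymes, 2 of 23 rose and 2 fell, with a median difference of 0.01. Gnpnat1, which acetylates glucosamine phosphate on the way to UDP-N-acetylglucosamine, read 10.20 and 10.13 on the arrays labelled Glut1-deficient, against 9.23 and 9.24 on the WT arrays (1.91-fold higher, limma adjusted p = 0.0211). Uap1l1, a relative of the enzyme of its last step, read 6.999 and 6.86 on the arrays labelled Glut1-deficient, against 5.92 and 5.79 on the WT arrays (2.11-fold higher, limma adjusted p = 0.0214). The genes of this list that fell act on sialic acid. Nanp, the phosphatase that releases free sialic acid, read 6.16 and 5.85 on the arrays labelled Glut1-deficient, against 7.24 and 7.06 on the WT arrays (2.22-fold lower, limma adjusted p = 0.0331). Cmah, which converts the acetyl to the glycolyl form of CMP-sialic acid, read 4.72 and 4.79 on the arrays labelled Glut1-deficient, against 6.09 and 5.71 on the WT arrays (2.21-fold lower, limma adjusted p = 0.0366).

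The 14 nucleotide sugar transporters carry the donors into the Golgi. Of these, 0 passed in limma and 6 had an unadjusted p under 0.05 (22.2% of all genes did). Slc35c2 differed by 0.36 and Slc35a4 by -0.35. Among 28 further Golgi glycosyltransferases outside the 13 families, 1 fell (1.05% of all genes fell). This was Ext1, a heparan sulfate polymerase, with 8.51 and 8.59 on the arrays labelled Glut1-deficient, against 9.50 and 9.27 on the WT arrays (difference -0.83, limma adjusted p = 0.0394). Of 14 genes of N-glycan trimming 0 passed in limma, with 4 at an unadjusted p under 0.05 (22.2% of all genes). Uggt2, a folding sensor that reglucosylates glycoproteins, differed by -0.58 (limma adjusted p = 0.0521), and Man1a, a Golgi mannosidase, by 0.47.

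Of 11 genes of glycan breakdown 1 rose (1.79% of all genes rose). Hexa, a lysosomal hexosaminidase subunit, read 9.55 and 9.19 on the arrays labelled Glut1-deficient, against 8.42 and 8.27 on the WT arrays (2.03-fold higher, limma adjusted p = 0.0442). Of 8 galectins, which bind galactose-containing glycans, 1 rose. Lgals7, the galectin of stratified epithelia, read 8.06 and 7.74 on the arrays labelled Glut1-deficient, against 6.94 and 6.70 on the WT arrays (2.11-fold higher, limma adjusted p = 0.0419). In limma, 0 of 11 sugar sulfotransferases, 0 of 23 genes of Golgi structure and 0 of 12 mucins and other O-glycan acceptors passed. An unadjusted p under 0.05 was found for 3, 3 and 1 of them, and for 22.2% of all genes. In these lists Chst2 differed by -0.77, Chst5 by -0.28, Golga4 by 0.48, Cog4 by 0.35, Dag1, which encodes dystroglycan, by -0.41, and Muc2 by -0.19. The medians of all 9 lists lay between -0.20 and 0.10.

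**Figure D5:**
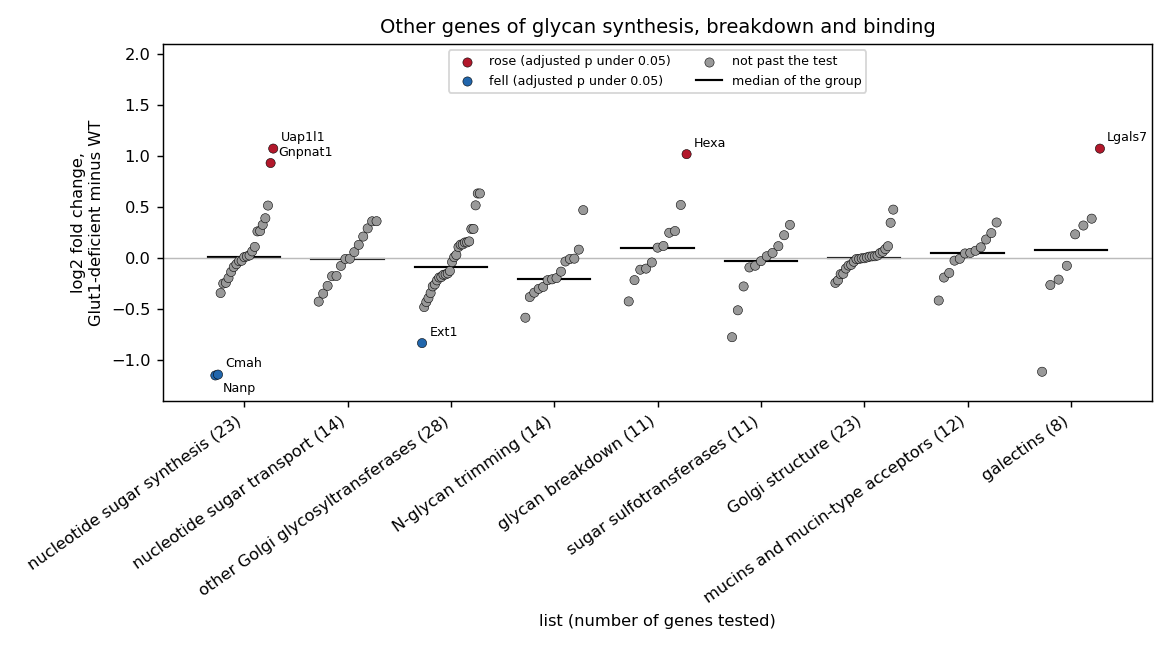
Log2 fold change, Glut1-deficient minus WT, of 144 genes (points) in 9 lists of glycan synthesis, breakdown and binding, with the number of genes tested in brackets; bars are list medians. The labelled genes passed the test: Gnpnat1, Uap1l1, Hexa and Lgals7 above 0, and Nanp, Cmah and Ext1 below.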

How the data were processed

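RNA of keratinocyte cultures was measured on 4 MoGene 2.0 arrays, 2 per genotype. The deposited values are log2 intensities, 1 per transcript cluster, which the authors made by RMA in Affymetrix Expression Console, according to the submitters' processing notes. RMA corrects background and equalises the arrays' distributions, so differences are relative to the other genes. The sources used here give neither versions nor a genome build. The number of arrays limits the precision.

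Of 41345 rows, 23521 had 1 gene symbol in the platform annotation, 1814 several and 16010 none. The first gave 22180 genes, 1082 of them from the brightest of several rows, with no filter on dim rows. Genotypes were compared two-sided with limma 3.58.1 under R 4.3.3 (lmFit, then eBayes, 2 residual degrees of freedom and a prior worth 2.95) and Benjamini-Hochberg adjustment. A permutation of 2 against 2 arrays cannot give an exact p below 0.333. Replicate arrays had r = 0.995 in Glut1-deficient and 0.996 in WT cells over genes. Same-numbered arrays did not deviate together (r = -0.0251 over genes).

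On simulated arrays of 22180 genes the test recovered 1 of 50 genes changed by 0.5, 28 of 50 by 1, 46 of 50 by 2 and 50 of 50 by 3 (log2), with 3 of 128 calls false. The simulated spread was drawn from the distribution that limma fits, and few genes were changed. These counts therefore do not give the error rate in the real data. The members, lists and tests were chosen with earlier results of these data known. Genes named are B4galnt2, all members that passed, up to 3 others per family and, per list, those that passed or otherwise up to 2, by smallest p, B4galnt2's neighbours and Slc2a1. Genes named besides these were chosen after their values were seen. The 16 alternatives changed the variance model, normalization, filter, use of rows, arrays, block and threshold. The 97 rows of the members included 7 other rows, and 6 rows with several symbols were left out, 0 of which passed in a limma fit of all rows (1 at unadjusted p under 0.05). Figures were drawn with matplotlib 3.10.9.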

Additional observations from a re-analysis of the deposited data

How the results depend on the processing

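The count of genes that passed depended on the variance model. Beside 6 glycosyltransferase genes, 630 genes in all and 7 pathway list genes, a variance that follows intensity gave 19, 2671 and 29, and its robust form 19, 2729 and 31. Testing genes above the median level only gave 18, 2327 and 25. Those 3 settings raise the calls in both directions, and 5 or all 6 of the same members were among them (Fut1 was not tested in the third). Median centring gave 7, 740 and 8 genes, quantile normalization 6, 606 and 8, cyclic loess 7, 706 and 8, the mean of a gene's rows 7, 636 and 7, and every named row on its own 6, 615 and 7. Testing all 41345 rows gave 0, 0 and 0 in limma (25, 6694 and 35 at unadjusted p under 0.05), and B4galnt2 at 5.12 then had an adjusted p of 0.0851. With 1 array left out, all 3 counts were 0 to 0 (16 to 32 members and 2948 to 4627 genes at unadjusted p under 0.05) and B4galnt2 lay between 4.91 and 5.33 with adjusted p from 0.0685 to 0.212. A threshold of 0.1 gave 15, 1855 and 19, and 0.01 gave 1, 4 and 0. With the replicate number as a block, 1 member (B4galnt2, adjusted p = 0.0447), 37 genes and 0 list genes passed, the list with 39 at unadjusted p under 0.05. The numbers did not pair the arrays, and the cause of the lower counts was not tested. The members' median difference kept its sign throughout, from -0.085 to -0.016. St8sia2 passed with the intensity trend in both forms, median centring, cyclic loess, the filter and the mean of rows. The sign turned for genes near 0 that never passed. B3galt6 was 0.0065 with median centring and ran from -0.069 to 0.035 with 1 array left out. Over the same fits B3galnt2 ran from -0.023 to 0.13, B3galt5 from -0.042 to 0.16, Fut4-ps1 from -0.14 to 0.59 and St6gal2 from -0.36 to 0.0047.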

Other observations

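The donor routes behind these enzymes can be followed gene by gene, with the genes outside the lists' named members chosen after their values were seen. On the route to UDP-N-acetylglucosamine, Gfpt1, the first enzyme, read 8.79 and 8.69 on the arrays labelled Glut1-deficient, against 8.20 and 8.24 on the WT arrays, a difference of 0.52 that did not pass (limma adjusted p = 0.0592). Gnpnat1 rose, as given above, while Pgm3 differed by -0.13, Uap1 by 0.07 and Gfpt2 by 0.03, none of which passed. On the route to CMP-sialic acid, Gne, the first enzyme, differed by 0.33 (limma adjusted p = 0.256) and Nans, the next, by -0.34 (limma adjusted p = 0.159). Nanp fell by 1.15 and Cmah by 1.14, whereas Cmas, which activates sialic acid, differed by -0.09 and Slc35a1, which carries it into the Golgi, by -0.18. Of the steps given here, Gnpnat1 passed on the first route and Nanp on the second, beside others that did not. Cmah, which acts on the finished sialic acid donor, passed too. Uap1l1, named above as a relative of the last enzyme of the first route, also rose.

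Among the galectins, Lgals9 read 8.73 and 9.13 on the arrays labelled Glut1-deficient, against 9.90 and 10.19 on the WT arrays. Its difference of -1.11 was about as large as that of Lgals7 in the opposite direction, and its limma adjusted p of 0.0515 did not pass.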
